A study of Mus musculus with 4 samples.

Results

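Macrophages and monocytes of the small intestinal lamina propria were examined in WT and *A20ZF7* mice as 319 barcodes, 103 of 22148 filtered barcodes in the WT library and 216 of 38248 in the *A20ZF7* library. They were selected by their marker RNA. Each had 500 or more UMIs (unique molecular identifiers, which mark single captured RNA molecules), 200 to 2500 genes and at most 15% mitochondrial UMIs. Each also had 5 or more UMIs summed over *C1qa*, *C1qb*, *C1qc*, *Csf1r* and *Lyz2* (the gate sum), at most 1 UMI over 5 T cell genes (*Cd3e*, *Cd3d*, *Cd3g*, *Trac*, *Trbc2*) and at most 1 over 5 stromal genes (*Col1a1*, *Col1a2*, *Col3a1*, *Dcn*, *Des*). These 15 genes chose the barcodes, so their levels are given as a description.

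Each genotype was 1 library of lamina propria cells pooled from 2 mice at 12 weeks of age and read from the 5′ end of transcripts. The WT mice carried normal A20, the ubiquitin-editing regulator of NF-κB signaling that *Tnfaip3* encodes, and the *A20ZF7* mice carried a knock-in of A20 that cannot bind linear (M1) ubiquitin chains. The knock-in is in the germline, so all cells of these mice carry it, T cells as well as macrophages. Before loading, cells of both genotypes went through negative selection for T cells and innate lymphoid cells. The macrophages here are therefore those that passed an enrichment meant to remove them, and any share of barcodes was set by that step as well as by the tissue. With 1 library per genotype there was no test between genotypes. Intervals are 95% intervals for counting error only and do not include variation between mice, and hashtags separated the mice in WT alone.

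Intestinal macrophages are replaced from blood monocytes in large part. Monocytes that enter the lamina propria lose Ly-6C, gain MHC class II, C1q and CX3CR1, and mature into cells that take up dead cells and microbes, recycle iron and lipid, and feed chemokines and cytokines such as IL-1β and IL-23 to neighboring T cells. A20 limits NF-κB signaling downstream of TNF and Toll-like receptors in these and other cells.

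Surface protein was read in WT by DNA-barcoded antibodies, which the gate did not use, and by hashtags 7 and 8, which mark WT mouse 1 and mouse 2. The 15-base tags below are those that the statements on surface protein and on the individual mice rest on, with capitals for the whole tag, which is what the antibody library counts. IA is the antibody to MHC class II, Tim4 to a receptor for dying cells on long-lived resident macrophages, F480 and CX3CR1 to macrophage surface proteins, and CD115 to the CSF1 receptor.
IA: GGTCACCAGTATGAT
Tim4: TGCTGGAGGGTATTC
F480: TTAACTTCAGCCCGT
CX3CR1: CACTCTCAGTCCTAT
CD115: TTCCGTTGTTGTGAG
hashtag7: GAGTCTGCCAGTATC
hashtag8: TATAGAACGCCAGGC

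MHC class II was the surface protein that most set the WT barcodes apart from the T cell and stromal gates. The IA antibody made up 429 of every 10000 antibody UMIs (hashtags left out) on the 103 members, 31.6 on 2870 barcodes with 3 or more T cell UMIs (the T cell gate) and 28.1 on 6324 barcodes with 5 or more stromal UMIs (the stromal gate). The ratio of members to the T cell gate was 13.6 (13.3 to 13.9), and it was 17.6 in mouse 1 and 12.4 in mouse 2. Dendritic cells also carry class II, and on the 26 WT barcodes of the dendritic gate described below IA stood at 149 per 10000, with 90.5 in mouse 1 and 354 in mouse 2, beside 501 and 389 on members of the same mice. Tim4 followed at 54.1 against 17.9 per 10000, a ratio of 3.03 (2.88 to 3.18) that was 2.79 in mouse 1 and 5.36 in mouse 2. Both mice thus showed class II and Tim4 above the T cell gate, and Tim4 differed more between the mice than class II did.

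CD90pt2 and CD5, to proteins that T cells carry, were at 0.261 and 0.292 of the T cell gate. The other antibodies named here moved less. CD54, the adhesion molecule ICAM-1, was 1.78-fold above the T cell gate but 0.771 of the stromal gate. The 2 mice differed, at 1.78 and 3.27 over the T cell gate and 0.777 and 1.34 over the stromal gate. CD38, an ectoenzyme of activated leukocytes, was 1.71-fold above T cells and 2.76-fold above stromal cells, and the checkpoint ligand PDL1 was 1.54-fold above T cells. CD14 (1.48), CD11b (1.45), CD39 (1.45), CD115 (1.35, 1.18 to 1.55), CD172a (1.27) and CD163 (1.23) were higher than on T cells by less than 2-fold. CD163 was 0.877 of the T cell gate in mouse 2, and CD11c was 1.10 with an interval that reached 1 (0.964 to 1.26).

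Antibodies to F4/80 and CX3CR1 did not mark these barcodes. F480 stood at 24.3 per 10000 on members and 26.1 on the T cell gate (ratio 0.929, 0.863 to 0.999), and CX3CR1 at 126 and 142 (0.885, 0.857 to 0.913), near the isotype controls, which were 0.893, 0.943 and 0.946. Ly6C was 0.938 over both mice, 0.822 in mouse 1 and 1.38 in mouse 2. CD1632, to the Fc receptors CD16 and CD32, was 1.06. The panel name FcRI belongs to 2 antibodies that the name does not tell apart, at 1.09 and 0.957. CD45 was 0.640 of T cells and 1.28 of stromal cells.

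**Figure D1:**
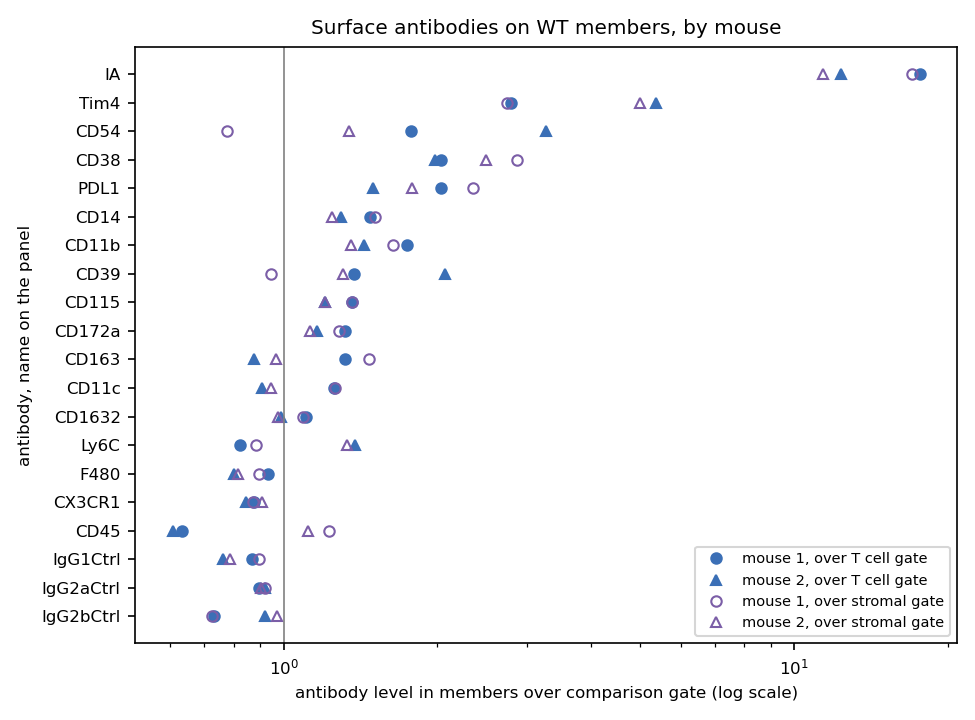
Antibody level on WT macrophages and monocytes divided by the level in the T cell gate (filled) or stromal gate (open), on a log axis, with circles for mouse 1 and triangles for mouse 2. IA lies at 17.6 and 12.4 over the T cell gate and Tim4 at 2.79 and 5.36, while F480, CX3CR1 and the isotype controls lie below 1.

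The RNA of the selected barcodes was that of macrophages. Levels are counts per 1000000 UMIs (CPM), summed over the barcodes of a gate, and levels of different genes are not compared, since 5′ UMIs depend on the transcript. The gate genes stood, in WT and *A20ZF7*, at 1599 and 1568 CPM for *C1qa*, 2102 and 1942 for *C1qb*, 1764 and 1864 for *C1qc*, which together form the complement starter C1q, 724 and 645 for *Csf1r*, the receptor on which macrophage survival depends, and 4776 and 3560 for *Lyz2*, lysozyme M. In the T cell gate each of the 5 was at most 11.4 CPM in either library, as the gate itself required.

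Markers outside the gate showed the same cells. *Tyrobp*, the DAP12 signaling adaptor, was at 2288 and 1909 CPM against 75.8 and 29.7 in the T cell gate, and *Fcer1g*, the shared Fc receptor γ chain, at 1799 and 1885 against 199 and 84.8. *Aif1*, an actin-binding protein of macrophages, was at 682 and 653 against 6.84 and 5.64, *Cx3cr1* at 262 and 242 against 2.90 and 6.91, and *Adgre1*, which encodes F4/80, at 241 and 230 against 0.526 and 1.07. So *Adgre1* and *Cx3cr1* RNA was found where their antibodies gave no signal above the T cell gate. *Apoe*, which carries lipid out of cells, was at 10571 and 6479 against 32.6 and 35.8. A UMI of *Tyrobp* was found in 83.5% and 79.2% of barcodes (61.2% and 61.0% after each was thinned to 500 UMIs), against 4.91% and 2.66% of the T cell gate (2.41% and 1.21% thinned).

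Dendritic barcodes shared class II RNA with the macrophages. This gate took 26 WT and 34 *A20ZF7* barcodes with 2 or more UMIs of *Flt3*, *Zbtb46*, *Xcr1*, *Clec9a* and *Cd209a* and a gate sum of at most 4, so their low C1q was set by the selection. In them *H2-Aa*, a class II chain, was at 2863 and 4852 CPM, beside 5541 and 5062 in macrophages, while *Ms4a7* was at 0 in both. *Flt3*, the growth factor receptor that defines dendritic cells, had 2 and 0 UMIs among all macrophage barcodes and *Zbtb46* 1 and 1.

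**Figure D2:**
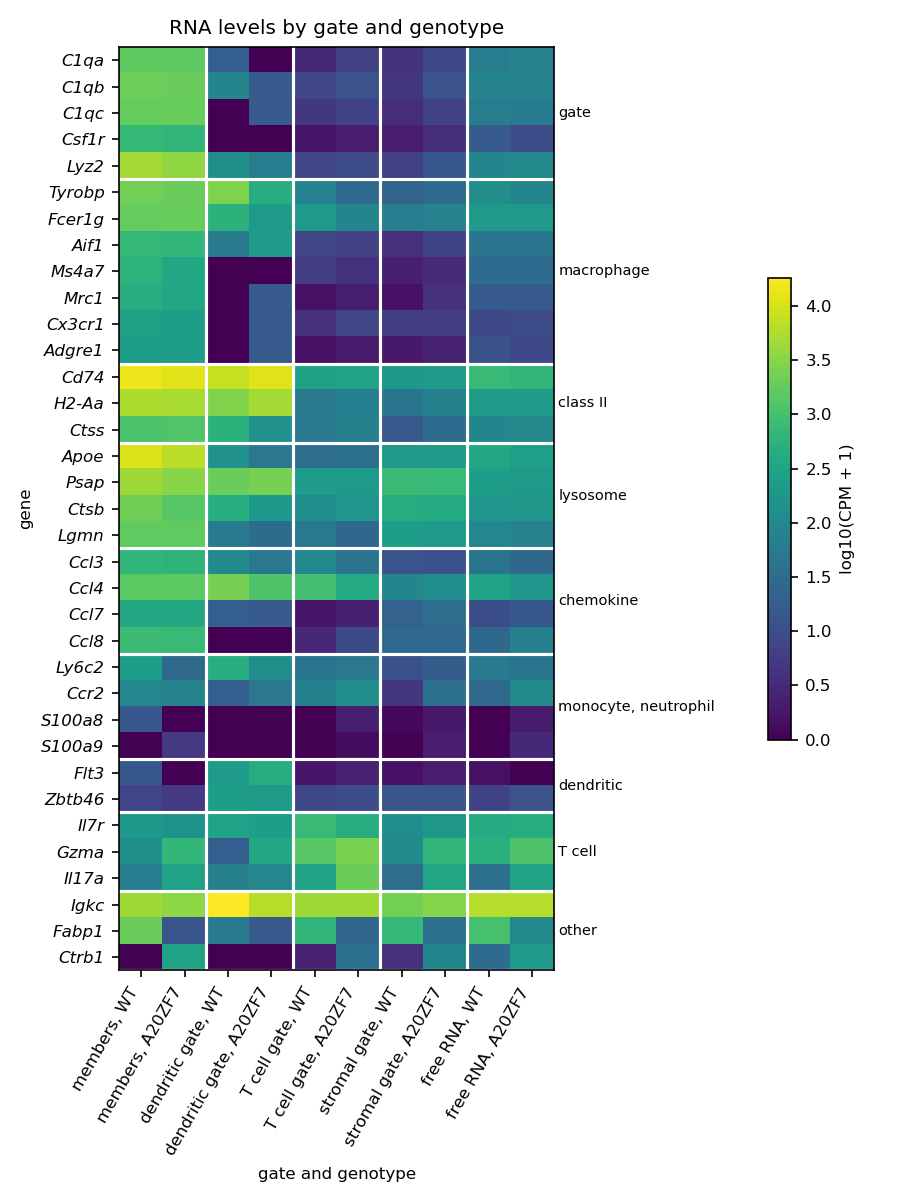
Heat map of log10(CPM + 1) for 35 genes in rows, grouped by role, in macrophages and monocytes (members), the dendritic, T cell and stromal gates and free RNA in columns, each for WT and A20ZF7. The macrophage genes are bright in the member columns and dark in the T cell and stromal columns, *S100a8* and *S100a9* are dark throughout, and *Gzma* and *Il17a* are brighter in A20ZF7 than in WT in the members, T cell and stromal gates and free RNA alike.

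The barcodes were shallow, and a few WT barcodes carried much of the RNA. Median depth was 1003 UMIs (501 to 8121) in WT and 1055.5 (503 to 3654) in *A20ZF7*, beside 917 and 960 over all filtered barcodes, and the summed depth over genes of both tables was 145109 and 243558 UMIs, so that 3 UMIs, the least used as a floor for a count of 0, equal 20.7 and 12.3 CPM. Members over 3000 UMIs numbered 7 in WT, with 25.3% of all WT member UMIs, and 4 in *A20ZF7*, with 5.25%. No barcode sequence was shared between the WT and the *A20ZF7* members, although 1196 were shared among all filtered barcodes.

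The deepest WT barcodes were unlike each other. The deepest, of 8121 UMIs from mouse 1, held 798 UMIs of the ferritin chain gene *Fth1*, 425 of *Ftl1*, 188 of the fatty acid carrier *Fabp5*, 163 of the chemokine *Ccl6* and 48 of the lysosomal glycoprotein *Gpnmb*, with 0 of *C1qa*. The next, of 7019 UMIs from mouse 2, was led by *Apoe* (301 UMIs) and held 12 UMIs of *Timd4*, which encodes Tim4, and 42 of complement *C3*. The next after that, of 6047 UMIs with both hashtags and a gate sum of 5, was led by enterocyte genes, with 271 UMIs of *Fabp1*, 96 of *Apoa1* and 100 of *Reg3b*. For this reason genotype ratios are given below in 3 ways: pooled UMIs, members of at most 3000 UMIs, and each member thinned to 500 UMIs.

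**Figure D3:**
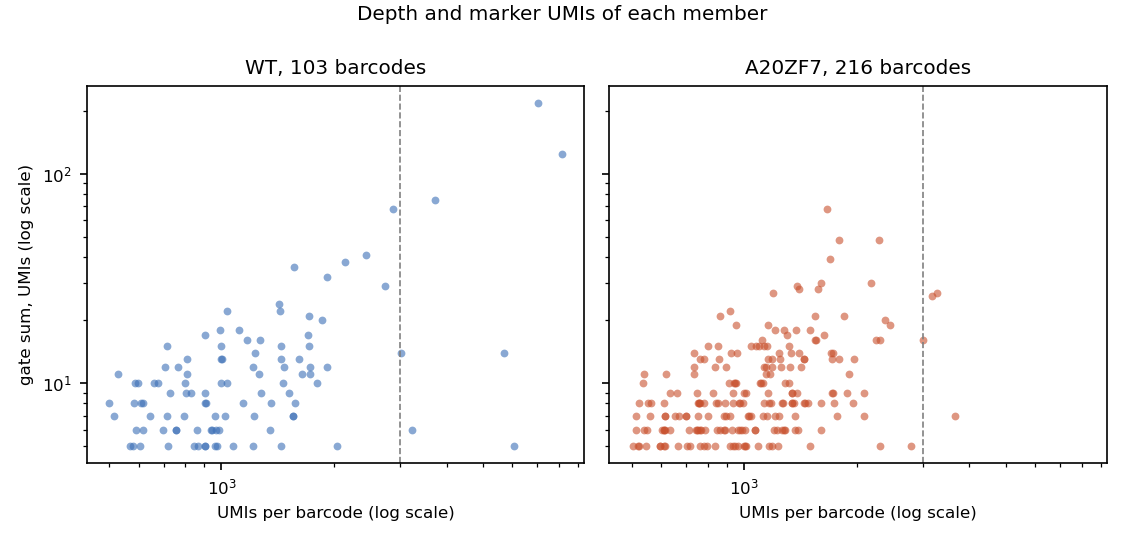
UMIs per barcode (x, log scale) against the gate sum (y, log scale) for each of the 103 WT and 216 A20ZF7 macrophage and monocyte barcodes, with a dashed line at 3000 UMIs. WT has 7 barcodes to the right of the line and A20ZF7 4, and the 2 highest gate sums, 217 and 124, are WT barcodes.

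*Tyrobp* and *Apoe* formed a gradient from outside to inside the gate, which not every gene did. With a gate sum of 3 or 4, which failed the gate, 56 WT and 96 *A20ZF7* barcodes had *Tyrobp* at 1030 and 1123 CPM and *Apoe* at 3090 and 3235. With 5 or 6, just inside, 27 and 63 barcodes had *Tyrobp* at 1240 and 1507 and *Apoe* at 5052 and 5451. At 10 or more, 52 and 84 barcodes had *Tyrobp* at 2774 and 2189 and *Apoe* at 13516 and 7614. *Cd74* in WT was at 9659 CPM just outside and 9639 just inside. *Cx3cr1* in *A20ZF7* was at 112 CPM just outside, and at 298, 241 and 214 over rising gate sums inside.

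Most barcodes were C1q-high. With 3 or more UMIs over the C1q genes there were 92 of 103 barcodes in WT (89.3%, 81.7 to 94.5) and 189 of 216 in *A20ZF7* (87.5%, 82.3 to 91.6), a ratio of 0.980 (0.901 to 1.07). The C1q genes are gate genes, so the selection itself fixed much of these shares, and they are given as a description. The 8 and 11 barcodes with at most 1 C1q UMI, which passed the gate through *Lyz2* or *Csf1r*, differed in genes that the split did not use. *Ms4a7*, a gene of mature macrophages, had no UMI in them, against 640 and 385 CPM in C1q-high barcodes. *Apoe* was at 2346 and 2493 against 11710 and 6780. *S100a6*, a calcium-binding protein of monocytes and other cells, was at 4790 and 1891 against 109.3 and 278, and *Plac8*, found in monocytes, at 2640 and 1977 against 273 and 134. In WT 1 C1q-low barcode of 3723 UMIs held 44 of the 49 *S100a6* UMIs and 15 of the 27 *Plac8* UMIs. In *A20ZF7* the C1q-low barcode with the most held 10 of 22 and 5 of 23. Among C1q-high WT barcodes, the 1 of 6047 UMIs held 27 of the 35 *Plac8* UMIs. The class II gene *H2-Aa* was at 7821 and 3353 CPM in C1q-low barcodes, against 5457 and 5131 in C1q-high barcodes. In WT the C1q-low barcode of 3723 UMIs held 39 of the 80 C1q-low *H2-Aa* UMIs.

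*Ccr2*, *Ly6c2* and *Chil3* had few UMIs or none, apart from *Ly6c2* in 1 WT barcode. Among 13 neutrophil genes only *Mmp9*, given below, was abundant enough to be tested. *Ccr2*, the receptor that brings monocytes to tissue, had 3 and 5 UMIs in the C1q-low barcodes, 293 CPM (60.5 to 857) and 430 (140 to 1003), against 78.1 and 51.0 CPM in C1q-high barcodes. *Ly6c2*, which encodes the monocyte antigen Ly-6C, had 0 and 3 UMIs in the C1q-low barcodes, and *Chil3* had none in C1q-low or C1q-high barcodes. In WT members 35 of the 36 *Ly6c2* UMIs came from 1 barcode of mouse 2 that also held 870 UMIs of *Igha*, an antibody heavy chain gene of plasma cells. Of the neutrophil genes, *Camp*, *Cxcr2*, *Ly6g*, *Ngp*, *Retnlg* and *Stfa2l1* had no UMI in either genotype, and over the C1q-high and C1q-low barcodes *S100a8* had 2 UMIs and *S100a9* 1. The name of monocytes thus rested on few barcodes and few UMIs, with little *Ly6c2*, and in WT 1 barcode held most of the *S100a6* UMIs.

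The share of macrophages and monocytes among filtered barcodes was 0.465% (0.380 to 0.564) in WT and 0.565% (0.492 to 0.645) in *A20ZF7*. The ratio was 1.21 with an interval that reached 1 (0.961 to 1.53). In WT it was 0.527% for mouse 1, 37 of 7015 barcodes, and 0.459% for mouse 2, 17 of 3704, with 17 members carrying both hashtags and 32 neither. The limits on T cell and stromal UMIs removed more barcodes from *A20ZF7*. On the gate sum alone 157 WT barcodes (0.709%) and 471 *A20ZF7* barcodes (1.23%) qualified, a ratio of 1.74 (1.45 to 2.08), and 24 of the 157 (15.3%) and 176 of the 471 (37.4%) had more than 1 T cell UMI. Among all filtered barcodes, 26.1% and 43.9% had 2 or more T cell UMIs. Whether doublets with T cells or free T cell RNA made these numbers was not tested.

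*Tnfaip3*, the gene that carries the knock-in, was transcribed in both genotypes. It was at 579 CPM in WT (391 in mouse 1 and 393 in mouse 2, from the barcodes with 1 hashtag) and 731 in *A20ZF7*, a ratio of 1.26 (0.969 to 1.66), and free RNA held 561 and 986 CPM. The knock-in changes the protein, so that the amount of RNA does not check the genotype.

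Most genes of these cells differed by less than 2-fold between the genotypes. The comparison covered 1722 genes that reached 100 CPM and 20 UMIs in WT or *A20ZF7*, whichever was higher, gate genes left out. Of these, 1511 (87.7%) had a ratio within 2-fold, and the median ratio of *A20ZF7* to WT was 1.12 (quartiles 0.878 to 1.46). A gene is called higher or lower below where its ratio was at least 2 or at most 0.5 and its counting interval did not reach 1, by pooled UMIs unless another weighting is named. By pooled UMIs 118 genes (6.85%) were higher in *A20ZF7* and 71 (4.12%) lower. Of the 118, 112 reached 100 CPM and 20 UMIs in *A20ZF7* alone, and of the 71, 55 did so in WT alone, so for these genes the filter itself favored a difference. Over all 1722 tested genes 601 and 95 passed in *A20ZF7* or WT alone. Divided by the median ratio, 76 were higher and 87 lower, so the share of higher genes among the calls went from 62.4% to 46.6%. Among members of at most 3000 UMIs, 107 (7.07%) of 1513 genes were higher and 24 (1.59%) lower. After thinning to 500 UMIs, 44 (6.03%) of 730 were higher and 12 (1.64%) lower. With genes left out where 1 barcode held 20% or more of the UMIs, 110 (6.95%) of 1583 were higher and 17 (1.07%) lower.

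Many of the lower calls rested on 1 WT barcode. Of the 71 lower genes, 54 had 20% or more of their WT UMIs in 1 barcode and 33 had 50% or more, against 8 and 7 of the 118 higher genes in *A20ZF7*. Over all 1722 tested genes the numbers were 320 and 50 in WT and 34 and 17 in *A20ZF7*, which has more barcodes, so the concentrations of the genotypes are not alike to begin with. Of the 118 higher genes, 108 had a free RNA ratio of 1 or more as well, as did 1231 of all 1722 tested genes, and 58 of the 118 were more abundant in the *A20ZF7* T cell gate than in the macrophages themselves, as were 766 of the 1722. Called in all 4 of these ways were 13 higher genes (*AW112010*, *Ankrd17*, *Ccl5*, *Ctla4*, *Dock2*, *Furin*, *Gzma*, *Ikzf3*, *Il17a*, *Lmo4*, *Mmp14*, *Myo1e* and *Zc3h7a*) and 3 lower (*5730419F03Rik*, *Ccl12* and *Dlgap1*).

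The genes that set macrophages apart from the T cell and stromal gates were also counted separately. A set of 161 tested genes with a mean level at least 4 times that of the T cell gate, stromal gate and free RNA of either library, chosen after values were seen, had a median ratio of 0.878, beside 1.12 for all tested genes. By pooled UMIs 4 of the 161 were higher (*Fgd2*, *Fxyd2*, *Itgam*, *Mmp9*) and 19 lower, where 6.85% and 4.12% of all tested genes were. Among members of at most 3000 UMIs 0 of 130 were higher and 7 lower, where 7.07% and 1.59% of all tested genes were. After thinning 4 were higher (*Ccrl2*, *Fcgr4*, *Gsr*, *Mmp9*) and 3 lower of 74, where 6.03% and 1.64% of all tested genes were. *Ccl12*, *Cd36*, *Hmox1*, *Pgf* and *Pla2g2d* were lower both by pooled UMIs and at most 3000 UMIs, which is a subset of the same barcodes. All of these but *Ccl12* passed the filter in WT alone, which itself favored a lower value in *A20ZF7*. Among the 19 lower genes *Ccl9*, *Ccl24*, *Gpnmb*, *Il18bp*, *Lyz1* and *Timd4* also passed in WT alone, so the counts are given as a description.

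*Hmox1*, the heme oxygenase that macrophages use to break down heme, was at 241 CPM in WT, with 249 in mouse 1 and 196 in mouse 2, and at 86.2 in *A20ZF7*. Its ratio was 0.357 (0.198 to 0.631), and 0.313 and 0.272 in the other weightings. With each barcode thinned before gating it was 0.461 (0.166 to 1.26), so the call was lost. *Cd36*, a scavenger receptor for oxidized lipid, was at 262 CPM in WT, with 320 and 164 in the mice, and at 41.1 in *A20ZF7* (0.157, 0.0697 to 0.321), and 0.188 and 0.202 otherwise. *Hmox1* and *Cd36* passed the filter in WT alone, which itself favored a lower value in *A20ZF7*, so their ratios are given as a description. Both WT mice were above the *A20ZF7* pool for both genes. With mouse 2 barcodes alone the *Hmox1* ratio was 0.439, with an interval that reached 1 (0.171 to 1.33). Free RNA was at 4.22 and 8.30 CPM for *Hmox1* and 35.9 and 32.2 for *Cd36*.

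*Ccl12*, a chemokine for monocytes, was at 317 CPM in WT, with 231 and 360 in the mice, and at 148 in *A20ZF7* (0.466, 0.293 to 0.737), and 0.403 and 0.367 otherwise. Its call was lost in barcodes of 1000 or more UMIs, at 0.934 (0.496 to 1.80), and at a gate sum of 10 or more, at 0.535 (0.265 to 1.05). *Pla2g2d*, a secreted phospholipase, went from 220 CPM (160 and 556) to 53.4 (0.242, 0.117 to 0.474), and *Pgf*, placental growth factor, from 158 (196 and 98.2) to 61.6 (0.389, 0.189 to 0.777), but 0.668 (0.259 to 1.69) at a gate sum of 10 or more. *Igf1*, a growth factor that tissue macrophages release, went from 303 CPM (426 and 196) to 90.3 (0.298, 0.170 to 0.508), and 0.369 and 0.322 otherwise. *Pla2g2d*, *Pgf* and *Igf1* passed the filter in WT alone, which itself favored a lower value in *A20ZF7*. Their ratios and the levels of the WT mice are therefore given as a description. For each of the 4 genes *Ccl12*, *Pla2g2d*, *Pgf* and *Igf1* both WT mice lay above the *A20ZF7* pool. With the barcodes of 1 mouse alone, some intervals reached 1. They did so for *Ccl12* with mouse 1 (0.640, 0.331 to 1.31), and for *Pgf* (0.627, 0.177 to 3.38) and *Igf1* (0.460, 0.181 to 1.39) with mouse 2. In barcodes with no T cell or stromal UMI the *Pgf* ratio was 0.452 (0.191 to 1.02). *Igf1* is also a stromal gene, at 319 and 251 CPM in the stromal gate and 61.8 and 23.9 in free RNA, and the part of stromal RNA in its difference was not tested. With free RNA subtracted in the way given for *Gzma* below, its ratio was 0.295 (0.160 to 0.524).

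**Figure D4:**
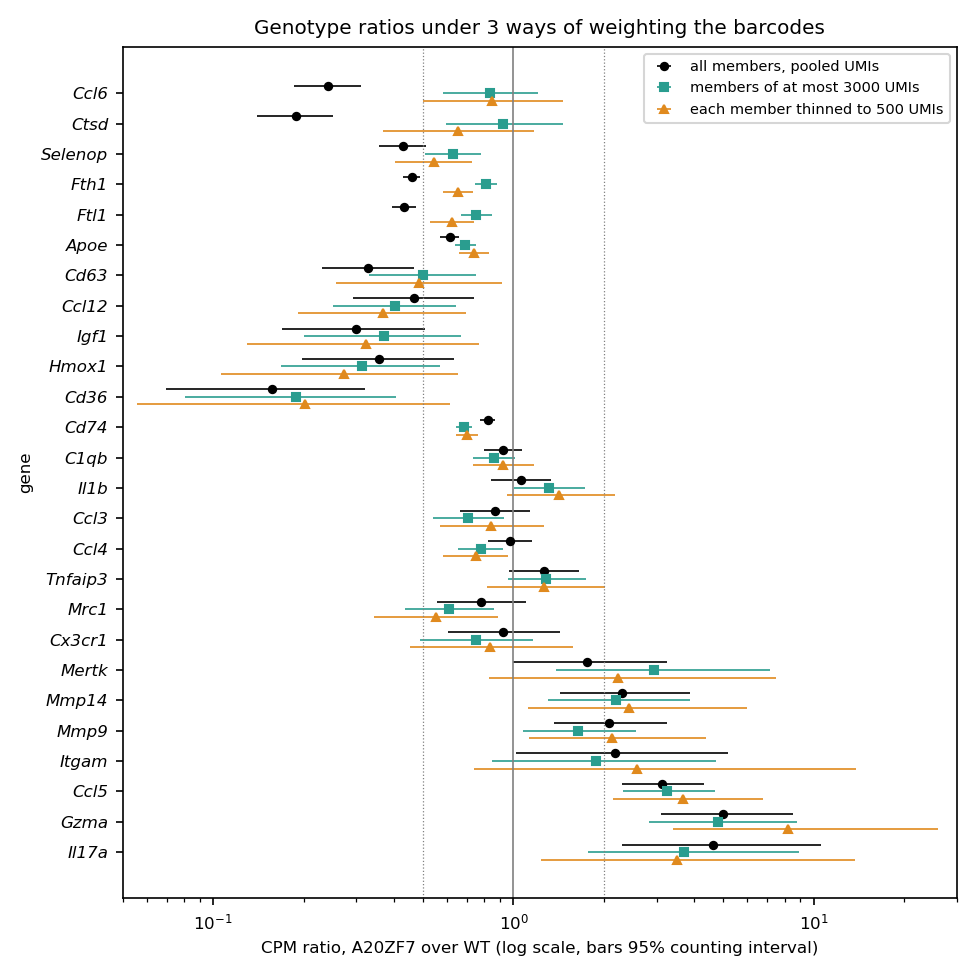
CPM ratio of A20ZF7 to WT (x, log scale, bars the 95% counting interval) for 26 genes in macrophages and monocytes, by pooled UMIs (circles), members of at most 3000 UMIs (squares) and each member thinned to 500 UMIs (triangles), with dotted lines at 0.5 and 2. *Igf1*, *Hmox1*, *Cd36* and *Ccl12* lie left of 0.5 in all 3, *Ctsd*, *Ccl6*, *Fth1* and *Ftl1* only by pooled UMIs, and *Ccl5*, *Gzma* and *Il17a* right of 2 in all 3.

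Among 25 genes of mature resident macrophages, 16 were tested, 0 were higher and 3 lower (*Igf1*, *Selenop*, *Timd4*), with a median ratio of 0.81. Over all tested genes 6.85% were higher and 4.12% lower, and *Igf1* and *Timd4* passed the filter in WT alone. After thinning 10 genes of this list were tested and none called. *Selenop*, a selenium carrier, was at 2026 and 866 CPM (0.428, 0.357 to 0.512), but 117 of its 294 WT UMIs lay in 1 barcode, and the ratio was 0.629 at most 3000 UMIs. *Timd4* was at 145 and 41.1 CPM (0.284, 0.119 to 0.629), and 0.522 (0.191 to 1.45) at most 3000 UMIs. It had 1 UMI in mouse 1 and 14 in mouse 2, 12 of them in the mouse 2 barcode of 7019 UMIs. *Apoe* had a ratio of 0.613 (0.571 to 0.658), and 0.691 and 0.738 in the other weightings. The WT mice had *Apoe* at 8369 and 16099 CPM. The same mouse 2 barcode held 301 *Apoe* UMIs, so this difference between the mice rested in large part on 1 barcode. *Ms4a7* (565 and 361 CPM), the chemokine *Pf4* (675 and 452) and the mannose receptor *Mrc1* (441 and 345) were within 2-fold, at 0.639, 0.669 and 0.782, and 0.554, 0.544 and 0.612 at most 3000 UMIs. *Cd81* (0.845), *Cx3cr1* (0.925) and *Adgre1* (0.953) had intervals that reached 1. *Mertk*, the receptor for uptake of dead cells, was at 117 and 205 CPM (1.75, 0.994 to 3.24), and 2.94 (1.38 to 7.17) at most 3000 UMIs.

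Several lysosome and lipid genes were called by pooled UMIs but not at most 3000 UMIs. Of 32 genes 28 were tested, 0 were higher and 9 lower (*Creg1*, *Cd36*, *Cd63*, *Ctsd*, *Fabp4*, *Fabp5*, *Fth1*, *Ftl1*, *Gpnmb*). The median ratio was 0.66 by pooled UMIs and 0.76 after thinning, where 18 were tested and 2 were lower (*Cd63*, *Fabp5*). Over all tested genes 4.12% were lower by pooled UMIs and 1.64% after thinning. *Cd36*, *Fabp4* and *Gpnmb* passed the filter in WT alone. *Fth1* was at 14803 and 6775 CPM (0.458, 0.429 to 0.488) but 0.811 at most 3000 UMIs, and *Ftl1* at 7319 and 3157 (0.431) but 0.753. *Ctsd*, the protease cathepsin D, was at 1420 and 267 CPM (0.188, 0.14 to 0.25) but 0.925 (0.595 to 1.46) at most 3000 UMIs. *Fabp5* (0.0937) and *Gpnmb* (0.231) were at 0.583 and 0.831 there. *Cd63*, a lysosomal tetraspanin, was at 662 and 218 CPM (0.329), with 0.499 and 0.484 otherwise. The sphingolipid activator *Psap* (0.703) and the cathepsin *Ctsb* (0.652) were within 2-fold, and the protease *Lgmn* was at 1661 and 1630 CPM (0.981, 0.834 to 1.16).

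Antigen presentation was within 2-fold. Of 15 genes 9 were tested, and none were called, with a median ratio of 0.89. *Cd74*, the class II invariant chain, was at 14231 and 11693 CPM (0.822, 0.776 to 0.870), and the class II chains *H2-Aa* at 5541 and 5062 (0.914), *H2-Ab1* at 4500 and 4011 (0.891) and *H2-Eb1* at 4362 and 3765 (0.863). At most 3000 UMIs these ratios were 0.684, 0.770, 0.750 and 0.722. The *A20ZF7* pool lay between the WT mice, which had *Cd74* at 14464 and 9424 CPM and *H2-Aa* at 5739 and 3730.

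Chemokines formed a mixed group. Of 21 genes 16 were tested, 1 was higher (*Ccl5*) and 4 lower (*Ccl6*, *Ccl9*, *Ccl12*, *Ccl24*), with a median ratio of 0.88. Over all tested genes 6.85% were higher and 4.12% lower, and *Ccl9* and *Ccl24* passed the filter in WT alone. After thinning 11 chemokine genes were tested, with 2 higher (*Ccl5*, *Ccrl2*) and 1 lower (*Ccl12*), where 6.03% and 1.64% of all tested genes were. *Ccl6* was at 1495 and 361 CPM (0.242), with 163 of its 217 WT UMIs in 1 barcode, and 0.834 (0.581 to 1.21) without the deep barcodes. *Ccl9* was at 193 and 53.4 CPM (0.277, 0.132 to 0.552), and 0.339 and 0.363 otherwise, but 0.816 (0.185 to 7.44) with mouse 2 barcodes alone and 0.480 (0.202 to 1.10) in barcodes with no T cell or stromal UMI. The inflammatory chemokines *Ccl3* (668 and 579 CPM) and *Ccl4* (1557 and 1515) had ratios of 0.866 and 0.973, and the monocyte attractants *Ccl7* and *Ccl8* 1.02 and 0.903. *Cxcl2*, which attracts neutrophils, was at 648 and 903 CPM (1.39, 1.09 to 1.79), and 1.56 at most 3000 UMIs.

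*Il1b*, which encodes IL-1β, was at 827 and 874 CPM (1.06, 0.842 to 1.33), and 1.32 (1.01 to 1.74) at most 3000 UMIs, and was found in 30.1% and 43.1% of barcodes (19.4% and 29.6% thinned), against 0.0697% and 0.497% in the T cell gate. The 2 WT mice differed, at 1404 and 294 CPM. In mouse 1 the barcode of 3723 UMIs held 13 *Il1b* UMIs, and *Il1b* was among the leading genes of a barcode of 3240 UMIs. The part of these deep barcodes in the difference was not tested. Of 28 inflammatory cytokines and enzymes 4 were tested, 1 was higher (*Areg*) and 1 lower (*Il18bp*), with a median of 1.19. Over all tested genes 6.85% were higher and 4.12% lower. *Areg*, which the T cell gate held at 163 and 598 CPM, passed the filter in *A20ZF7* alone. *Il18bp*, which encodes the IL-18 binding protein, passed it in WT alone. It was at 200 and 82.1 CPM (0.411, 0.220 to 0.752), and 0.553 at most 3000 UMIs. *Il23a*, the specific chain of IL-23, had 0 UMIs in both genotypes, so up to 20.7 and 12.3 CPM could be missed at this depth. *Il12b*, the chain that IL-12 and IL-23 share, had 3 and 11 UMIs, *Tnf* 7 and 22, *Il6* 1 and 2, and *Il10* 16 and 19. *Il22ra2*, which encodes the soluble IL-22 decoy receptor, had 8 UMIs in 2 WT barcodes and 15 in 5 *A20ZF7* barcodes. A difference in these was not detectable at this depth.

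NF-κB genes were not called by pooled UMIs. Of 31 targets and regulators 15 were tested, with 0 higher, 0 lower and a median ratio of 1.16, beside 1.12 for all tested genes. After thinning 12 were tested and *Nfkb1* alone was called, past 2-fold higher with an interval of 1.10 to 3.89, where 6.03% of all tested genes were higher. *Nfkbia*, the inhibitor IκBα, was at 586 and 756 CPM (1.29, 0.992 to 1.69), *Gadd45b* at 345 and 505 (1.47, 1.05 to 2.08), and *Nfkb1*, the p105 subunit, at 303 and 472 (1.56, 1.09 to 2.26). For *Nfkb1* free RNA stood at 331 and 914 CPM and the T cell gate at 440 and 745, and with free RNA subtracted in the way given for *Gzma* below it kept 12 and 0 UMIs. *Cd83*, an activation marker that NF-κB induces, was within 2-fold and not called, at 1220 and 817 CPM (0.670, 0.544 to 0.825), and 0.558 and 0.588 otherwise. Its levels in the WT mice, 942 and 916 CPM among barcodes with 1 hashtag, were below the WT pool, and with the barcodes of either mouse alone its ratio was 0.892 or 0.868, with intervals that reached 1.

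Interferon-stimulated genes gave 0 higher and 0 lower of 10 tested among 31 by pooled UMIs, with a median of 1.16, and 1 higher of 5 after thinning (*Isg15*). Over all tested genes 6.85% were higher and 4.12% lower by pooled UMIs, and 6.03% and 1.64% after thinning. Single calls in the short lists of this paragraph are given as a description. *Ly6e* was at 662 and 1018 CPM (1.54, 1.21 to 1.97). *Isg15*, a ubiquitin-like interferon target, was at 131 and 222 (1.69, 0.988 to 3.02), with 2.49 (1.25 to 5.49) at most 3000 UMIs, 3.71 (1.12 to 19.3) thinned and 0.960 (0.517 to 1.92) with mouse 1 barcodes alone. Among 26 pattern recognition and Fc receptors 10 were tested and none called by pooled UMIs (median 0.99). *Fcgr4*, an activating Fc receptor, was at 193 and 324 CPM (1.68, 1.08 to 2.69) and was the 1 gene of 6 called higher after thinning (2.72, 1.27 to 6.68), but stood at 1.37 (0.878 to 2.21) at most 3000 UMIs. Of 25 receptors and factors of the lineage 14 were tested and none called by pooled UMIs (1.17), while after thinning 1 of 8 was lower (*Spi1*). Of 20 IL-10 and TGF-β response genes 13 were tested, with *Hmox1* the 1 lower gene (1.06). Of 17 stress and dissociation genes 17 were tested and none called (0.84), with *Junb* at 3590 and 3285 CPM and *Fos* at 2026 and 2184.

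Complement genes other than C1q gave 1 higher (*Itgam*) and 1 lower (*C3*) of 7 tested among 17, with a median of 0.80. *Itgam* passed the filter in *A20ZF7* alone and *C3* in WT alone, and over all tested genes 6.85% were higher and 4.12% lower. *C3*, the central complement protein, was at 338 and 61.6 CPM (0.182), with 42 of 49 WT UMIs in 1 barcode, and 1.01 at most 3000 UMIs. The receptors for complement fragments *C5ar1* (214 and 226 CPM) and *C3ar1* (214 and 160) had ratios of 1.06 and 0.750. *Itgam*, which encodes CD11b, rested on 9 and 33 UMIs, at 62.0 and 136 CPM (2.19, 1.02 to 5.19), with 71.1 and 98.2 in the WT mice. Its interval reached 1 at most 3000 UMIs (1.88, 0.848 to 4.72) and after thinning (2.58, 0.738 to 13.8), and its ratio was 1.34 at a gate sum of 10 or more.

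The metalloprotease genes *Mmp9* and *Mmp14* were higher in *A20ZF7* by pooled UMIs and after thinning. *Mmp9*, a gelatinase of neutrophils and macrophages, was at 200 CPM in WT, with 160 in mouse 1 and 0 in mouse 2 (0 of 17 barcodes), and at 415 in *A20ZF7* (2.08, 1.36 to 3.25), with 1.64 and 2.14 in the other weightings. In barcodes of 1000 or more UMIs the ratio was 1.20 (0.723 to 2.02), and at a gate sum of 10 or more 1.60 (0.941 to 2.81), so neither was called. It was also not called with ratios divided by their median (1.85), with barcodes of other lineages removed (1.79) or in C1q-high barcodes alone (1.90), and it was 3.54 (2.01 to 6.70) without WT barcodes of both hashtags. A UMI was found in 14.6% and 23.1% of barcodes (8.74% and 18.8% thinned), against 0.801% and 0.759% of the T cell gate (0.314% and 0.293% thinned), and free RNA held 7.39 and 15.6 CPM. It was the only tested gene of 13 neutrophil genes, of which 6 had no UMI in either genotype. *Mmp14*, a membrane protease, was at 152 CPM in WT (213 and 98.2 in the mice) and 349 in *A20ZF7* (2.30, 1.43 to 3.87), with 2.19 and 2.42 otherwise, but 1.64 (0.890 to 3.29) with mouse 1 barcodes alone. The stromal gate held it at 316 and 402 CPM and free RNA at 31.7 and 44.6. For *Mmp9* and *Mmp14* both WT mice lay below the *A20ZF7* pool.

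Among 20 monocyte genes 8 were tested, 0 were higher and 2 lower (*Ly6c2*, *Thbs1*), with a median of 0.81. Over all tested genes 6.85% were higher and 4.12% lower, and *Ly6c2* passed the filter in WT alone. After thinning 4 of the monocyte genes were tested and none called, and their median turned to 1.58. *Thbs1*, thrombospondin 1, was at 296 and 127 CPM (0.429, 0.262 to 0.698), and the stromal gate held it at 259 and 153. *Plac8* was at 476 and 279 CPM (0.587) and 1.39 (0.845 to 2.37) at most 3000 UMIs. *S100a6* was at 434 and 357 CPM (0.823) and 2.22 (1.32 to 3.92) at most 3000 UMIs. That limit left out the WT barcode of 3723 UMIs, which held 44 of the 63 *S100a6* UMIs of WT members. *Cebpb*, a transcription factor of the lineage, was at 531 and 612 CPM (1.15, 0.870 to 1.54). Of 20 dendritic cell genes 2 were tested and none called (0.75), and of 12 proliferation genes 2 were tested and none called (1.57).

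Lymphocyte genes were among those with large ratios. Of 16 T cell and Th17 genes 7 were tested and 5 were higher (*Ccl5*, *Il17a*, *Il22*, *Il23r*, *Skap1*), and of 12 innate lymphoid genes 4 were tested and 2 were higher (*Areg*, *Nkg7*). All of these but *Ccl5* passed the filter in *A20ZF7* alone, so the counts are given as a description. Over all tested genes 6.85% were higher and 4.12% lower. In barcodes of 1000 or more UMIs *Il22* was at 2.08 (0.804 to 6.32), *Il23r* at 1.79 (0.773 to 4.63) and *Areg* at 2.14 (0.893 to 5.87), and in barcodes with no T cell or stromal UMI *Il22* was at 2.24 (0.783 to 7.80) and *Areg* at 1.63 (0.589 to 5.18), so these calls were lost. *Skap1* was at 1.94 at most 3000 UMIs. *Gzma*, a cytotoxic granule protease, was at 131 and 653 CPM (4.99, 3.09 to 8.50), *Il17a*, the Th17 cytokine, at 62.0 and 287 (4.63, 2.31 to 10.6), *Ctla4*, the T cell checkpoint receptor, at 62.0 and 292 (4.70, 2.34 to 10.7), and *Ccl5* at 352 and 1096 (3.12, 2.31 to 4.30). The WT mice differed for *Il17a*, at 17.8 CPM (1 UMI) and 229 CPM (7 UMIs), and its ratio was 1.25 (0.578 to 3.24) with mouse 2 barcodes alone and 2.18 (0.955 to 5.60) in barcodes with no T cell or stromal UMI. *Gzma* stood at 35.5 and 131 CPM in the WT mice and *Ccl5* at 88.8 and 556. Each of these 4 genes also had more CPM in the free RNA of *A20ZF7* than of WT, by less than 2-fold for *Ccl5*. Free RNA held *Gzma* at 513 and 1161 CPM, *Il17a* at 34.9 and 285, *Ctla4* at 231 and 881 and *Ccl5* at 1571 and 1947, and the T cell gate held *Gzma* at 1420 and 2493 and *Il17a* at 309 and 1976. The T cell and Th17 list summed to 1199 and 2661 CPM in macrophages and 3254 and 5150 in free RNA. Free RNA was also subtracted, scaled to the antibody genes *Igha*, *Igkc* and *Jchain* (66.1% of the WT and 52.2% of the *A20ZF7* member UMIs). The scale took all antibody RNA of members as free RNA, although 1 barcode in each genotype held much of the *Igha*. It can therefore be too large, by an amount that was not tested, and all values after subtraction are given as a description. After it *Il17a* kept 6 and 34 UMIs, a ratio of 3.34 (1.39 to 9.73). *Gzma* kept 0 and 11 UMIs and *Ccl5* 0 and 19, both below the filter, and *Ctla4* kept none in either genotype.

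Other genes far from 1 were also found in free RNA or in other gates, and their source was not tested. *Zc3h7a* was at 68.9 and 587 CPM (8.52, 4.5 to 18.1), with 63.9 and 444 in free RNA, 96.3 and 448 in the T cell gate and 70.1 and 866 in the stromal gate, and *Dlgap1* at 737 and 37.0 (0.0501, 0.0223 to 0.0988), with 2495 and 98.6 in free RNA, so both differed the same way in the T cell and stromal gates. The WT and *A20ZF7* gene tables do not list the same genes and may come from different references, and the part of that in these ratios was not tested. Those gates held *Dlgap1* at 356 and 27.9 and at 357 and 35.1 CPM. The long noncoding RNA *AW112010* was at 765 and 1860 CPM (2.43, 1.97 to 3.02), beside 689 and 967 in free RNA and 1565 and 1966 in the T cell gate. With free RNA subtracted in the way given for *Gzma* above, its ratio was 4.32 (3.16 to 6.04). That of *Zc3h7a* was then 12.8 (4.83 to 48.1), while *Dlgap1* kept 0 UMIs in both genotypes. The leading ratios also held *Ikzf3* (3.25), *Macroh2a1* (2.92), *Dock2* (2.90), *Arhgap31* (2.87), *Tox* (2.78) and *Myh9* (2.75). Each of these 6 was at least as abundant in the *A20ZF7* T cell gate as in the macrophages. The digestive enzyme *Ctrb1* had 0 UMIs in WT and 68 in *A20ZF7*, at least 13.5-fold higher, with 66 of the 68 in 1 barcode, and the pancreas list (3 tested of 12, each of which passed the filter in *A20ZF7* alone) summed to 14 and 936 CPM, beside 125 and 795 in free RNA.

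Epithelial genes had the smallest ratios, with most of the WT UMIs in 1 barcode. Of 15 epithelial genes 5 were tested and 5 were lower (*Apoa1*, *Apoa4*, *Fabp1*, *Fabp2*, *Reg3b*), where 4.12% of all tested genes were. Each of the 5 passed the filter in WT alone, so the count is given as a description. The list summed to 5175 and 94 CPM, beside 3718 and 575 in free RNA. *Fabp1*, the enterocyte fatty acid carrier, had 280 and 3 UMIs, of which 271 were in the WT barcode named above. *Rbp2* (232 and 7 UMIs), *Prap1* (70 and 0), *Spink1* (58 and 0) and *Pigr* (36 and 0) are genes of the same epithelium. *Lyz1*, the Paneth cell lysozyme and a near copy of *Lyz2* with which its reads can be confused, had 92 and 9 UMIs, 76 of them in the deep *Apoe*-rich WT barcode. It was the 1 tested gene of 14 Paneth and secretory genes.

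RNA of other lineages was present as well. B and plasma cell genes (4 tested of 15, none called, median 0.76) summed to 12970 and 9472 CPM, led by *Igha*, beside 19836 and 18090 in free RNA, with *Fcmr* and *Ms4a1* at 0 UMIs in both genotypes. For *Igha* 1 deep WT barcode held 870 of 968 UMIs and 1 *A20ZF7* barcode of 2789 UMIs held 547 of 1133. Its ratio was 0.697 by pooled UMIs and 5.60 at most 3000 UMIs, and the limit of 3000 UMIs left out the WT barcode but not the *A20ZF7* one. Stromal genes outside the gate were led by *Adamdec1* (331 and 353 CPM), with 2 tested of 15 and none called (1.05). Of 9 endothelial genes 1 was tested and not called (1.08), and of 9 mast cell, 4 glial and 5 erythroid genes 0 were tested. Among the barcodes, 1 and 0 had 2 or more dendritic UMIs, 2 and 2 mast cell, 1 and 1 B cell, and 3 and 0 epithelial UMIs. Female-specific *Xist* was at 400 and 558 CPM, with *Ddx3y*, *Eif2s3y*, *Kdm5d* and *Uty* of the Y chromosome at 0 UMIs in both.

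Of the 10 most abundant genes outside the gate, *Fth1* and *Ftl1* were called lower by pooled UMIs and the others lay within 2-fold. *Tmsb4x*, which binds actin monomers, was at 14637 and 15072 CPM (1.03, 0.976 to 1.09), *Actb* at 4982 and 5584 (1.12) and *Fau* at 5093 and 5255 (1.03). The nuclear RNA *Malat1* was at 4169 and 6290 (1.51, 1.37 to 1.66), with 11123 and 16562 in free RNA.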

How the data were processed

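Single-cell suspensions of small intestinal lamina propria were profiled by 5′ RNA sequencing with an antibody panel. The authors made the deposited counts, UMIs per gene and barcode with no filter on cells, on the mm10 build; their processing notes name Cell Ranger 7.1, and the file headers name Cell Ranger 8.0.0 for expression and 7.1.0 for antibodies. The WT and *A20ZF7* antibody files held identical values, so antibodies were used for WT alone. The gene tables listed 33696 and 32285 genes, and the 31950 identifiers in both were compared; the tables may come from different references, whose part in any ratio was not tested. Libraries held 35289432 (WT) and 54587004 (*A20ZF7*) UMIs.

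With Python 3.11.15 (scipy 1.17.1, pandas 2.3.3, numpy 2.4.6), UMIs were summed over gated barcodes and scaled to counts per 1000000 (CPM). CPM have exact Poisson intervals, CPM ratios conditional intervals, shares Clopper-Pearson intervals and share ratios log-method intervals, at 95%. A count of 0 was set to 3 UMIs in ratios. WT hashtags were called with Seurat 5.3.0 (HTODemux, quantile 0.99) in R 4.3.3; barcodes with both hashtags were kept and no doublet caller was run. Free RNA is all barcodes of 10 to 100 UMIs. The members and gene lists were chosen with earlier results of these data known. Named genes are the gate genes, *Tnfaip3*, list members past 2-fold or among the 4 most abundant of a list, the 12 largest and 12 smallest ratios at 200 CPM and 30 UMIs, and the 10 most abundant; those outside this rule (such as *Pgf*, *Pla2g2d*, *Fcgr4*) were chosen after their values were seen. The calling of genes was tested on simulated data. Some genes of the lists are not reported here.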

Additional observations from a re-analysis of the deposited data

How the results depend on the processing

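No paired analysis was possible because each genotype is 1 pool and no number links a WT mouse to an *A20ZF7* mouse. The share ratio of 1.21 was 0.935 at a gate sum of 10 or more and 1.74 with no limit on T cell or stromal UMIs, an alternative chosen after seeing the data, as were thinning after gating, the limit of 3000 UMIs and the limit of 20% per barcode. Under its other alternatives it lay between 1.02 and 1.30, and the C1q-high ratio between 0.930 and 1.04. The 118 higher and 71 lower genes became 58 and 47 at a gate sum of 10 or more, 23 and 11 with each barcode thinned before gating, 206 and 141 at 50 CPM and 10 UMIs, 219 and 258 with no CPM filter, 2 and 8 in C1q-low barcodes alone, and 44 and 12 with members thinned after gating. Higher genes were 76 after division by the median. Lower genes were 46 without WT barcodes of both hashtags, 24 at most 3000 UMIs, 17 without genes led by 1 barcode, and 20 to 33 with the barcodes of 1 WT mouse alone, where higher genes were 80 to 83. These single-mouse settings kept the 37 barcodes called for mouse 1 or the 17 for mouse 2, so the 17 WT members with both hashtags and the 32 with neither dropped out as well, and a change cannot be put down to a mouse. The IA antibody ratio was 12.4 to 17.6 in single mice and 27.5 by median UMIs. Causes were not tested.

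Of 1494 gene values under alternatives, 1170 lay within the counting interval of the pooled value, 306 lay outside it and 18 called genes' values turned to the other side of 1. *Reg3b* turned to 6.42 (gate sum of 10), 1.47 (barcodes of other lineages removed), 1.80 (both hashtags removed), 1.27 (mouse 1 barcodes alone, but 0.460 with mouse 2 barcodes alone) and 1.29 (at most 3000 UMIs). *C3* turned to 1.16 with mouse 1 barcodes alone (0.0448 with mouse 2), 1.01 at most 3000 UMIs and 1.36 with no T cell or stromal limit. *Ccl6* turned to 2.76 with mouse 2 alone (0.111 with mouse 1), and *Timd4* to 2.31 with mouse 1 alone (0.0896 with mouse 2). *Gpnmb* turned to 1.47 and *Ly6c2* to 2.80 with no T cell or stromal UMI, and *Ly6c2* to 3.29 at most 3000 UMIs. *Thbs1* turned to 1.79 when thinned before gating. In C1q-low barcodes *Gzma* was 0.147, *Ccl6* 2.35, *Ccl9* 3.52 and *Thbs1* 2.64. Depth limits every list: genes under 100 CPM were not compared. In the 8 and 11 C1q-low barcodes only 104 genes were tested, and the 2 higher and 8 lower calls rest on few barcodes.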
